A study of Rattus norvegicus albus with 6 samples.

Results

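Integrins, the receptors that hold cells to their matrix, and laminins, the chains of the basement membrane, were followed together with the laminin-binding proteins agrin and nidogen in cultured rat hepatic stellate cells. A gene was taken as a member if a probe set carried it as its only gene symbol and that symbol was Itga, Itgb, Lama, Lamb or Lamc with a number and at most 1 letter, or Nid1, Nid2, Hspg2, Dag1 or Agrn. The rule found 24 of the 14322 named genes: 8 α integrins, 7 β integrins, 7 laminin chains, and Agrn and Nid2. Each had 1 probe set. No probe set carried Nid1, Hspg2, Dag1, Itgav or Itgb3 as its only symbol, and these genes were not analysed here.

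The cells were primary hepatic stellate cells of Rattus norvegicus albus, cultured on plastic for 7 days in 10% serum until fully activated, and all 6 groups share this activation. Ad.DKK-1, an adenovirus for the secreted Wnt antagonist DKK-1, was compared with Ad.GFP, an adenovirus for green fluorescent protein. Both were given at a multiplicity of infection of 200 for 24 h in 5% serum and were followed by 24 h without serum. ICG-001 keeps β-catenin from its coactivator CBP and was used at 10 µM, and FJ9 keeps Dishevelled from Frizzled receptors and was used at 200 µM. Each compound had its own vehicle array and acted for 24 h in serum-free medium. Every group was 1 array, hybridised with RNA of 3 to 4 animals combined. A difference for a single treatment therefore has neither a replicate nor a p-value. The sources used here do not say whether a treated pool and its control came from the same animals.

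An integrin is a pair of an α and a β chain, and the pairing sets what it binds. The β chain encoded by Itgb1 joins most α chains to make receptors for collagen, laminin and fibronectin, whereas the chains of Itgb5, Itgb6 and Itgb8 join the αv chain. These αv receptors bind vitronectin or the latent form of TGF-β, the main fibrogenic cytokine of the liver. A laminin is a trimer of an α, a β and a γ chain, and nidogen and agrin tie it to collagen IV and to the cell surface. Stellate cells lie in the space of Disse, where the basement membrane is sparse in the healthy liver and becomes denser in fibrosis.

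Values are log2 expression values, so a difference of 1 is a doubling, and each difference is treated minus own control. Levels are not compared between genes, since each probe set has its own response. Of 17 measured stellate cell and myofibroblast markers 15 passed the level filter, and Gfap (5.08 to 6.43) and Ngfr (5.56 to 6.77) did not. That filter set aside the 30% of genes with the lowest means over the 6 arrays (6.39 or less) and kept 10025 genes, among them 18 members. The 6 members under it were Itga10, Itgb7, Itgb8, Lama1, Lama3 and Lamb3. The array medians differed by −0.09 for Ad.DKK-1 minus Ad.GFP, −0.17 for ICG-001, 0.00 for FJ9 and −0.13 for the vehicle of FJ9 minus that of ICG-001. The Dkk1 probe set read 6.01 with Ad.DKK-1 and 5.85 with Ad.GFP, which does not check the label because the sources used here do not give the species of the viral insert. In RNA from whole cultures, fewer cells of a type and less RNA per cell cannot be told apart.

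Some cell type markers differed between treated and control arrays. Stellate cell markers had a mean level of 9.92 to 10.20 on the treated arrays and 10.59 to 10.90 on the controls. Of the 15 past the filter 9, 4 and 6 were at least 1.5-fold lower under Ad.DKK-1, ICG-001 and FJ9 and 0 higher. Of all genes 20.8%, 13.1% and 14.8% were lower. Between the vehicle arrays 2 of these 15 markers were lower on the vehicle of FJ9 and 0 higher, against 521 and 245 of all 10025 genes. Limma's test of the mean treated minus control difference over the 3 treatments called 5 of these 15 lower and 0 higher, against 5.02% and 3.56% of all genes. Among the 5 were Rgs5 (6.13 on ICG-001), Lrat (7.18 on FJ9) and Pdgfra (7.88 on ICG-001). Other stellate cell markers did not go with them. Vim read between 12.7 and 13.1 throughout, and Des differed by 0.31 under Ad.DKK-1, 0.33 with ICG-001 and −0.88 with FJ9. Mesothelial markers, 6 measured, had a mean level of 6.70 to 7.21 on the treated arrays and 7.46 to 7.71 on the controls. Of the 4 past the filter 2 were lower in each treatment, against the same shares of all genes, and 0 between the vehicle arrays. Wt1 was called lower (−1.37 ± 0.24, adjusted p = 0.0026 by limma). Hepatocyte markers (5.69 to 6.67) and endothelial markers (6.42 to 7.02) overlapped between treated and control arrays. Against its own control, however, the hepatocyte mean was lower in all 3 pairs (5.69 against 5.83, 6.24 against 6.67, 6.15 against 6.30). Most of the 10 hepatocyte markers did not share this: 3, 8 and 5 differed below 0 under Ad.DKK-1, ICG-001 and FJ9, and 7, 2 and 5 above. Only with ICG-001 were most of them lower. Of the 2 past the filter 0, 2 and 0 were at least 1.5-fold lower and 0 higher, against the same shares of all genes. The mean of cholangiocyte and other epithelial markers was also lower in all 3 pairs (5.55 against 6.02, 5.78 against 6.15, 6.33 against 6.37). With FJ9 most of these 7 markers did not share this. Below 0 were 6, 6 and 3 under Ad.DKK-1, ICG-001 and FJ9, and 1, 1 and 4 were above. The largest Ad.DKK-1 difference was that of Krt14, under the filter and near that array's lowest reading of 4. Of the 3 past the filter 0, 1 and 0 were at least 1.5-fold lower and 0 higher. Their medians were −0.11, −0.56 and 0.02. The endothelial mean was higher under Ad.DKK-1 (6.54 against 6.42) and lower with both compounds. Under Ad.DKK-1 3 of the 7 endothelial markers differed below 0 and 4 above, the largest being Emcn (1.01), under the filter. Of the 4 endothelial markers past the filter 2, 0 and 0 were at least 1.5-fold lower in the 3 treatments and 0 higher, and their median under Ad.DKK-1 was −0.19. The part of these shifts in the members' differences was not tested.

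Of the members past the filter, 1 was at least 1.5-fold lower in all 3 treatments: Itgb5, a vitronectin receptor chain, which read at least 2.50-fold below its control in each. Of those under the filter, Lama1 was too. Under Ad.DKK-1, 3 of 4 laminin chains past the filter, both linkers, 3 of 5 β integrins and 2 of 7 α integrins were lower, and 1 α integrin was higher. With ICG-001 the α integrins Itga2, Itga4, Itga6 and Itga11 were higher, and with FJ9 no member was at least 1.5-fold higher. Itga6, a laminin receptor chain, was more than 2-fold higher under Ad.DKK-1 and ICG-001 and lower under FJ9.

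Of the 18 members past the filter, 10 were at least 1.5-fold lower under Ad.DKK-1 and 1 was higher, against 20.8% and 14.5% of all 10025 genes. With ICG-001, 5 were higher and 1 lower, against 12.6% and 13.1% of all genes. FJ9 was accompanied by 8 lower and 0 higher members, against 14.8% and 11.6% of all genes. The median difference over the members was −0.80 under Ad.DKK-1, 0.04 with ICG-001 and −0.38 with FJ9, and over all genes it was −0.07, 0.01 and 0.01. Between the vehicle arrays 0 of the 18 members reached 1.5-fold, against 7.64% of all genes, and their differences ran from −0.53 to 0.54. Within 1.5-fold in all 3 treatments were 3 members, Itga1, Itga7 and Itgb1, against 40.8% of all genes, and 3 members (Itga4, Itga6 and Itga11) passed 1.5-fold in opposite directions, against 3.07%. Centring each array on its median turned the split over all genes from 1449 higher and 2082 lower to 1874 and 1681 under Ad.DKK-1, and from 1267 and 1314 to 2218 and 754 with ICG-001. The members' own counts under that centring were 1 higher and 10 lower for Ad.DKK-1, 6 and 1 for ICG-001, and 0 and 8 for FJ9. The same centring moved the ICG-001 median over all genes from 0.01 to 0.18 and that over the members from 0.04 to 0.21.

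**Figure D1:**
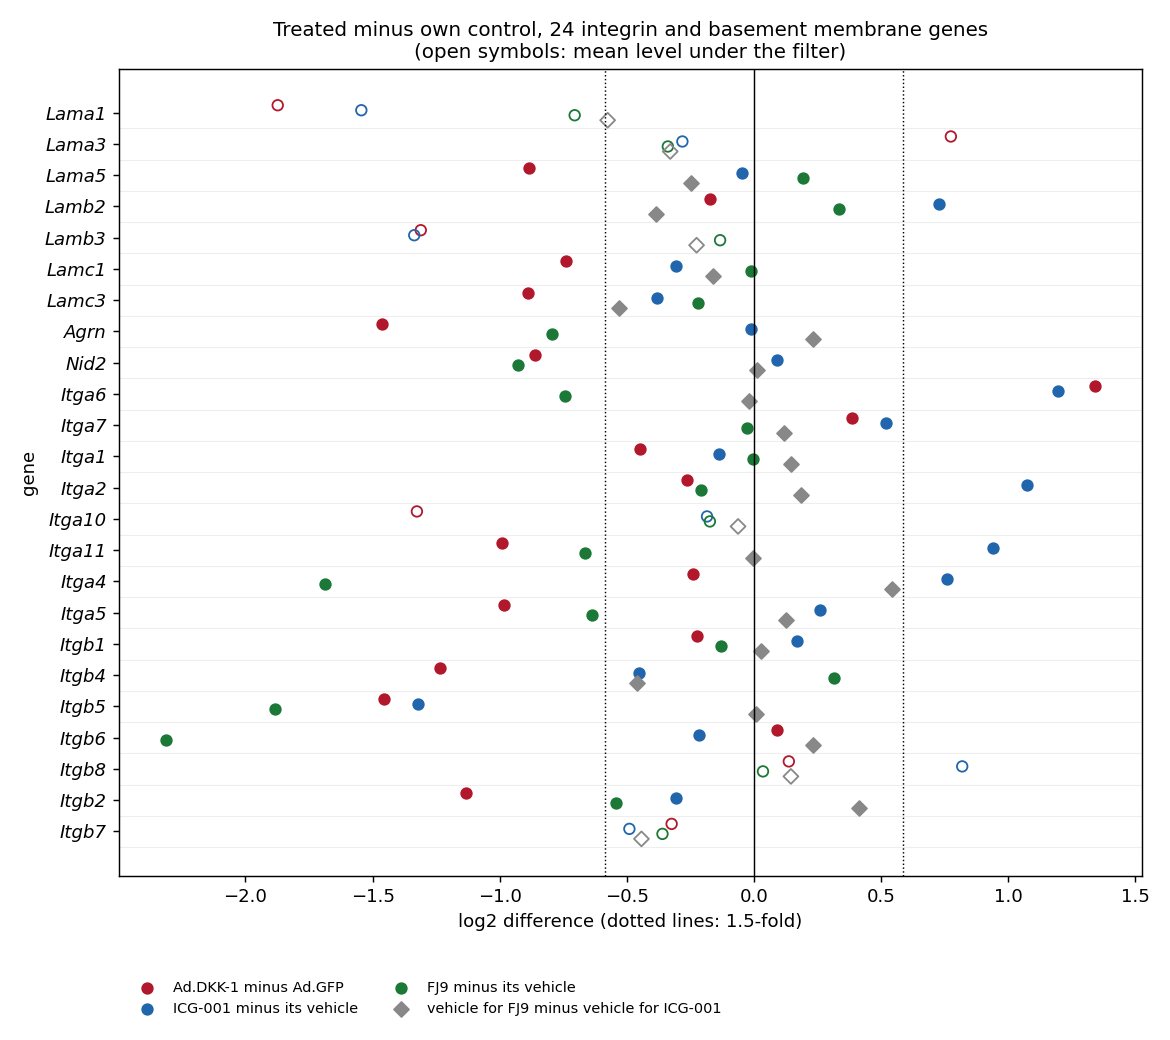
Log2 difference of each treated array from its own control (circles) and between the vehicle arrays (grey diamonds) for the 24 genes, ordered by role, with dotted lines at 1.5-fold and open symbols for the 6 genes under the level filter. Itgb5 lies left of the dotted line in all 3 treatments, and Itga6 lies on both sides.

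Among laminin chains, Lama5 encodes a widely made α chain, and Lamb2 and Lamc1 encode β and γ chains that can join it. Lamc1 read 9.71 on the Ad.DKK-1 array and 10.45 on Ad.GFP, 10.69 on ICG-001 and 10.99 on its vehicle, and 10.82 on FJ9 and 10.83 on its vehicle. The Ad.DKK-1 array was thus the lowest, 1.67-fold under its control, while FJ9 and its vehicle read nearly alike. Lama5 read 7.29 on Ad.DKK-1 and 8.18 on Ad.GFP, that is −0.89, and between 9.15 and 9.40 on the other 4 arrays. Both virus arrays were therefore below every uninfected array for Lama5, and infection cannot be told apart from the serum schedule that went with it. Lamb2 went its own way and read 10.37 on ICG-001 against 9.64 on its vehicle, 9.59 on FJ9 against 9.26, and 9.38 on Ad.DKK-1 against 9.55. Its ICG-001 array was the highest of the 6 and lay 1.66-fold above its own vehicle.

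Lamc3, a γ chain of restricted distribution, read 5.72 on Ad.DKK-1 and 6.61 on Ad.GFP, 6.65 on ICG-001 and 7.04 on its vehicle, and 6.29 on FJ9 and 6.51 on its vehicle. Every treated array was lower than its own control, but only Ad.DKK-1 passed 1.5-fold (−0.89). The vehicle arrays differed from each other by −0.53, and FJ9 lay at −0.75 from the other vehicle. The other 3 laminin chains had mean levels under the filter. Lama1, the α chain of early embryonic laminin, read 4.49 on Ad.DKK-1 against 6.36, 5.97 on ICG-001 against 7.51, and 6.23 on FJ9 against 6.94. All 3 treated arrays were below all 3 controls, with differences of −1.87, −1.54 and −0.71, and the vehicle arrays differed by −0.58. Lamb3, a chain of epithelial laminin, differed by −1.31 under Ad.DKK-1, −1.34 with ICG-001 and −0.13 with FJ9. Lama3, its epithelial α partner, differed by 0.77, −0.28 and −0.34 in the same order.

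Of the linkers, Agrn encodes agrin, a heparan sulfate proteoglycan that binds laminin and dystroglycan. It read 7.82 on Ad.DKK-1 and 9.28 on Ad.GFP, 8.89 on ICG-001 and 8.90 on its vehicle, and 8.34 on FJ9 and 9.13 on its vehicle. The Ad.DKK-1 array was lowest, 2.76-fold under its control, the ICG-001 array matched its vehicle (−0.01), and FJ9 lay between. With the vehicle of ICG-001 as control the FJ9 difference of −0.79 became −0.56 and no longer reached 1.5-fold. Nid2 encodes nidogen-2, which bridges laminin and collagen IV. It read 9.47 on Ad.DKK-1 against 10.33, 10.61 on ICG-001 against 10.52, and 9.60 on FJ9 against 10.53. The Ad.DKK-1 and FJ9 arrays lay below the other 4, with differences of −0.86 and −0.93, and the ICG-001 array differed by 0.09.

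Among laminin receptor chains, Itga6 divided the treatments. It read 8.64 on Ad.DKK-1 and 7.30 on Ad.GFP, 8.78 on ICG-001 and 7.58 on its vehicle, and 6.82 on FJ9 and 7.56 on its vehicle. The 3 controls lay within 0.29 of each other, the Ad.DKK-1 and ICG-001 arrays stood above them by 2.53-fold and 2.29-fold of their own controls, and the FJ9 array stood 1.67-fold below its own. Itga7, a laminin receptor chain best known from muscle, differed by 0.38, 0.52 and −0.03 for Ad.DKK-1, ICG-001 and FJ9, all within 1.5-fold. Its ICG-001 difference passed 1.5-fold under each rescaling, at 0.69 with median centring, 0.74 with quantile normalization and 0.68 with loess correction. Itgb4, the partner of the Itga6 chain in hemidesmosomes of epithelia, read 5.81 on Ad.DKK-1 against 7.04, 6.44 on ICG-001 against 6.89, and 6.75 on FJ9 against 6.43. Only the Ad.DKK-1 array lay outside the range of the 3 controls, and the vehicle arrays differed by −0.46.

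Collagen receptor chains did not share a direction. Itga11, a fibrillar collagen receptor of fibroblasts, read 7.26 on Ad.DKK-1 and 8.26 on Ad.GFP, 9.39 on ICG-001 and 8.45 on its vehicle, and 7.78 on FJ9 and 8.44 on its vehicle. The controls spanned 0.19, the ICG-001 array was 1.92-fold above its vehicle, and the Ad.DKK-1 and FJ9 arrays were 1.99-fold and 1.58-fold below their controls. Itga2, the chain of another collagen receptor, read 10.94 on ICG-001 against 9.87, 9.84 on FJ9 against 10.05, and 8.19 on Ad.DKK-1 against 8.45. ICG-001 was the highest array, 2.10-fold above its vehicle, and as with Lama5 both virus arrays lay below all 4 others. Itga1, the chain of a collagen IV receptor, differed by −0.45, −0.14 and −0.01 for Ad.DKK-1, ICG-001 and FJ9 and never reached 1.5-fold. Itga10, under the level filter, differed by −1.33 under Ad.DKK-1 and by −0.18 and −0.17 with the compounds.

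Itga5, the α chain of the classical fibronectin receptor, read 8.55 on Ad.DKK-1 and 9.54 on Ad.GFP, 9.91 on ICG-001 and 9.65 on its vehicle, and 9.14 on FJ9 and 9.77 on its vehicle. Ad.DKK-1 and FJ9 were the lowest arrays, with differences of −0.98 and −0.64, and the FJ9 value became −0.51 with the other vehicle. Itga4, which binds VCAM-1 and an alternatively spliced part of fibronectin, read 9.47 on FJ9 and 11.16 on its vehicle, 11.37 on ICG-001 and 10.61 on its vehicle, and 10.22 on Ad.DKK-1 and 10.46 on Ad.GFP. FJ9 was the lowest array, 3.22-fold under its own vehicle, and ICG-001 the highest. The vehicle arrays were 0.54 apart for Itga4, so that ICG-001 stood 0.76 above its own vehicle and 0.22 above the other. Vcam1, the gene of its ligand, read 7.90 against 10.80 for Ad.DKK-1, 6.83 against 8.90 for ICG-001 and 7.38 against 9.56 for FJ9, every treated array below every control. Fn1, the fibronectin gene, differed by 0.13, 0.47 and 0.10 in the same order.

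Itgb1, the common β partner of these α chains, moved little. It read 12.84 on Ad.DKK-1 and 13.06 on Ad.GFP, 13.41 on ICG-001 and 13.24 on its vehicle, and 13.14 on FJ9 and 13.27 on its vehicle. Its 3 differences of −0.22, 0.17 and −0.13 had the signs of those of Itga5, Itga4, Itga2 and Itga11 in every treatment, also under every scaling tried, but were at most 1.17-fold. With the values as deposited the signs of the other 4 α chains measured, Itga1, Itga6, Itga7 and Itga10, did not match those of Itgb1. The signs did match for Itga1 under median centring (−0.35, 0.04 and −0.01). They also matched for Itga10 under quantile normalization (−1.19, 0.05 and −0.20) and under loess correction (−1.11, 0.09 and −0.20). Which α chains match thus depends on the scaling, and the 4 named first were singled out after their values were seen. The Itgb1 readings lie near the top of the array's range, which ends between 13.5 and 13.8, and whether that narrows the differences was not tested.

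Itgb5 encodes the β chain of an αv receptor for vitronectin that can activate latent TGF-β and also serves adenovirus entry. It read 10.29 on Ad.DKK-1 and 11.74 on Ad.GFP, 10.12 on ICG-001 and 11.44 on its vehicle, and 9.56 on FJ9 and 11.45 on its vehicle. The 3 controls lay within 0.31 of each other and all 3 treated arrays lay at least 1.15 below the lowest of them, so the groups did not overlap. The treated arrays were 2.74-fold, 2.50-fold and 3.69-fold under their own controls. The vehicle arrays differed by 0.01, and the choice of vehicle therefore hardly touched these values. Of all 10025 genes, 3.14% were at least 1.5-fold lower in all 3 treatments, and of the 18 members only Itgb5 was. All 3 treated arrays lay below all 3 controls for 13.2% of all genes, and for 3 members, Itgb5, Agrn and Itgb2.

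Itgb6, another αv partner that activates latent TGF-β and is known mainly from epithelia, was low on a single array. It read 4.92 on FJ9 and 7.24 on its vehicle, 6.78 on ICG-001 and 7.00 on its vehicle, and 7.44 on Ad.DKK-1 and 7.35 on Ad.GFP. The FJ9 array was 4.97-fold below its vehicle and the other 5 arrays lay within 0.65 of each other. On the FJ9 array Itgb6 lay under the filter value of 6.39, and the lowest reading of that array was 4. How far such low readings bear on the size of the fold was not tested. The 7 measured markers of cholangiocytes and other epithelia had a mean level between 5.55 and 6.37 over the arrays, with 3 of the 7 past the filter. With FJ9 the differences of these 7 markers were below 0 for 3 and above 0 for 4, and Epcam read 7.47 on FJ9 and 7.45 on its vehicle. The part of epithelial RNA in the Itgb6 readings was not tested. Itgb8, under the filter, read 6.00 on ICG-001 against 5.18 and differed by 0.14 under Ad.DKK-1 and 0.04 with FJ9.

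**Figure D2:**
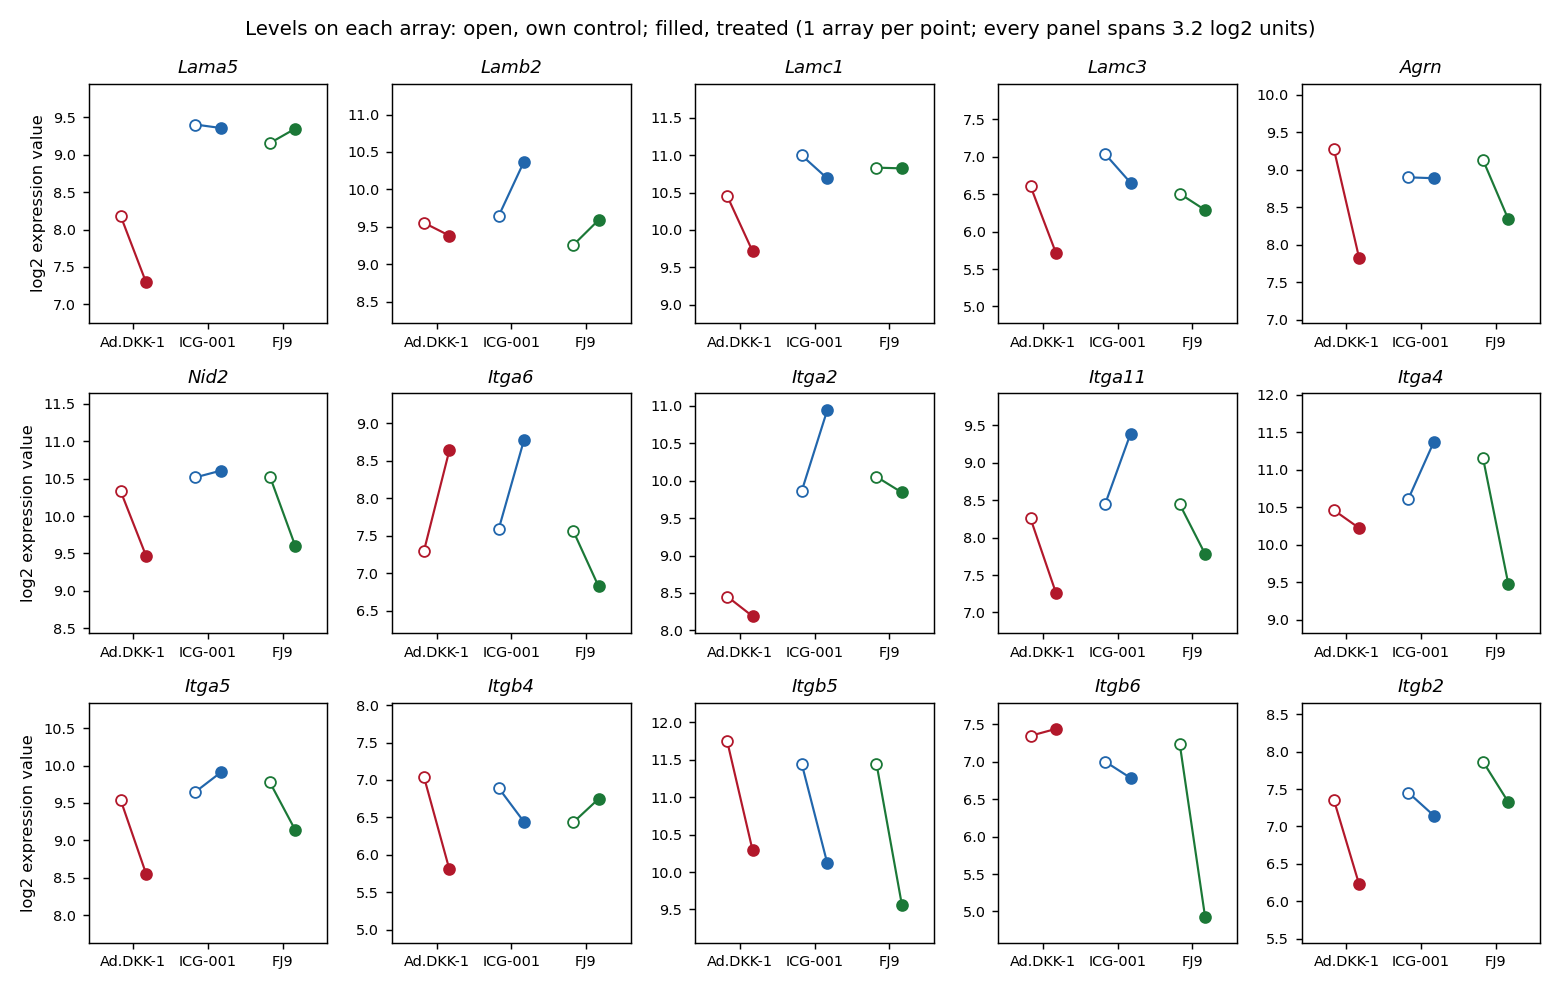
Log2 expression value on each array for the 15 genes past the level filter that were at least 1.5-fold from their control in 1 treatment or more, with the open point for the control and the filled point for the treated array of each pair. Itgb5 lies between 11.44 and 11.74 on the controls and between 9.56 and 10.29 on the treated arrays, while Itgb6 is at 4.92 with FJ9 and between 6.78 and 7.44 elsewhere.

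Itgb2 and Itgb7 encode the β chains of leukocyte integrins. Itgb2 read 6.23 on Ad.DKK-1 and 7.36 on Ad.GFP, 7.15 on ICG-001 and 7.45 on its vehicle, and 7.32 on FJ9 and 7.87 on its vehicle. All 3 treated arrays lay below all 3 controls, and Ad.DKK-1 was 2.19-fold below its own. The mean level of the 15 measured markers of macrophages and other leukocytes ran from 6.04 to 6.41 on the treated arrays and from 6.66 to 6.79 on the controls. Differences were below 0 for 11, 14 and 10 of the 15 under Ad.DKK-1, ICG-001 and FJ9, and some markers read higher, such as Itgal by 1.21 with FJ9 and Ncr1 by 0.61 under Ad.DKK-1. Of the 5 past the filter 4, 2 and 2 were at least 1.5-fold lower, against 20.8%, 13.1% and 14.8% of all genes. Between the vehicle arrays 2 of the 5 were higher on the vehicle of FJ9 and 0 lower, against 245 and 521 of all 10025 genes. Ptprc, Adgre1 and Itgam were under the filter, with Ptprc between 5.27 and 5.67 on treated and between 6.19 and 6.72 on control arrays. The part of leukocyte RNA in the Itgb2 readings was not tested. Itgb7, under the filter, differed by −0.32, −0.49 and −0.36 for Ad.DKK-1, ICG-001 and FJ9.

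The test run was limma's, on the treated minus control difference averaged over the 3 pairs, blocked by pair, with p-values adjusted over all 10025 genes. The treatments are different agents and not replicates, so this tests their mean and never 1 of them. Itgb5 was lower by this test, with a mean difference of −1.55 ± 0.19 (SE, 3 pairs) and an adjusted p of 0.000254 by limma, and was lower in 3 of 3 pairs. It was the only 1 of 18 members called, 5.02% of all genes being called lower and 3.56% higher. Agrn (−0.76 ± 0.26, adjusted p = 0.0922 by limma), Nid2 (−0.57 ± 0.22, adjusted p = 0.132) and Itgb2 (−0.66 ± 0.27, adjusted p = 0.148) did not pass. For Itgb6 (−0.81 ± 0.39, adjusted p = 0.211 by limma) and Itga6 (0.60 ± 0.35, adjusted p = 0.300) the standard error was wide, and 1 treatment lay apart from the other 2. Without the FJ9 pair Itga6 was called higher (1.27 ± 0.33, adjusted p = 0.0042 by limma), and without the ICG-001 pair Agrn (−1.13 ± 0.29, adjusted p = 0.0388) and Nid2 (−0.90 ± 0.24, adjusted p = 0.0426) were called lower. Itgb6 was called lower without the Ad.DKK-1 pair (−1.27 ± 0.39, adjusted p = 0.0477 by limma). In each of these calls the pair left out was the one whose difference was nearest 0 or of opposite sign. They therefore follow from the differences given above and are no further support. These runs called 7.2% of all genes without the FJ9 pair, 5.69% without the ICG-001 pair and 6.88% without the Ad.DKK-1 pair, with fewer residual degrees of freedom than the full fit.

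**Figure D3:**
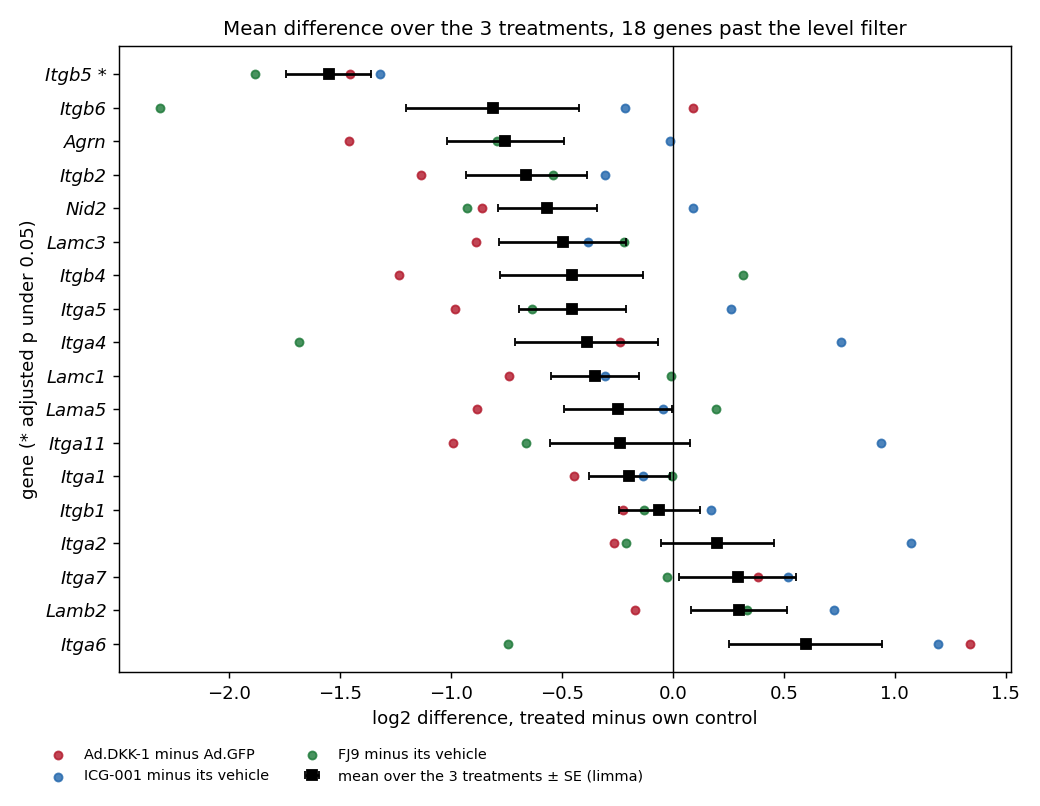
Mean log2 difference over the 3 treatments (black square, bar ± SE from limma) and the difference under each treatment (coloured points) for the 18 genes past the level filter. Only Itgb5, at −1.55 ± 0.19, has an adjusted p under 0.05, and for Itga6, Itga4 and Itga11 the points lie on both sides of 0.

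Genes that act with integrins and laminins were taken from 7 lists with 88 genes past the filter. Their counts stand against 20.8% lower and 14.5% higher of all genes under Ad.DKK-1, 13.1% and 12.6% with ICG-001, and 14.8% and 11.6% with FJ9. Limma's test of the mean called 11 of the 88 lower and 1 higher, against 5.02% and 3.56% of all genes, and its calls in each list stand against these shares. Of the 30 adaptors of integrin tails and focal adhesions, 0 were at least 1.5-fold higher and 4 lower under Ad.DKK-1, 3 higher and 3 lower with ICG-001, and 1 higher and 14 lower with FJ9. The lower adaptors were thus 13.3% of the list under Ad.DKK-1, 10.0% with ICG-001 and 46.7% with FJ9, of which only the last is above the share of all genes. The median over these adaptors was −0.27, −0.08 and −0.51 in the same order. With FJ9 the largest differences were those of Lims2, a partner of integrin-linked kinase (−2.18), the actin linker Vcl (−1.61) and Fblim1 (−1.23), while the talin gene Tln1 differed by −1.04. By limma's test of the mean over the treatments 4 adaptors passed, all lower: Ptk2b (−1.41 ± 0.29, adjusted p = 0.0081), Csk, a kinase that restrains Src (−0.78 ± 0.20, adjusted p = 0.0247), Vcl (−0.87 ± 0.22, adjusted p = 0.0280) and the tensin gene Tns1 (−0.72 ± 0.20, adjusted p = 0.0351).

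Of 14 tetraspanins and other membrane partners of integrins, 7 were lower and 1 higher under Ad.DKK-1, 2 lower and 2 higher with ICG-001, and 5 lower and 1 higher with FJ9. The lower shares were 50.0%, 14.3% and 35.7%, so that with ICG-001 the list was near all genes. Slc3a2, whose protein binds β integrin chains and also carries amino acid transporters, read 12.88 against 11.88, 13.10 against 11.89 and 13.37 against 11.74 for Ad.DKK-1, ICG-001 and FJ9. All 3 treated arrays were above all 3 controls, and the mean difference was 1.28 ± 0.19 with an adjusted p of 0.000814 by limma. The syndecan Sdc4, a fibronectin co-receptor in focal adhesions, fell by 1.10 ± 0.20 (adjusted p = 0.0036 by limma), and Sdc2 fell by 0.83 ± 0.18 (adjusted p = 0.0115). Cav1, the caveolin gene, differed by −0.42, 1.07 and −2.19, the same order of signs as Itga11 and Itga4. This likeness was picked after the values were seen and was not set against all genes.

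Among 15 integrin ligands other than laminin, 7 were lower and 0 higher under Ad.DKK-1, 2 lower and 2 higher with ICG-001, and 6 lower and 0 higher with FJ9. The lower shares were 46.7%, 13.3% and 40.0%, again near all genes with ICG-001. Vcam1 fell by 2.38 ± 0.24 over the 3 treatments (adjusted p = 9.64e-05 by limma), and Tgfb1 (−0.74 ± 0.19, adjusted p = 0.0255) and the fibrillin gene Fbn1 (−0.63 ± 0.19, adjusted p = 0.0487) were lower too. Tgfb1 is carried as a latent complex that αv integrins can bind. Of 10 collagen IV and other basement membrane genes past the filter, 6 were lower under Ad.DKK-1, 3 with ICG-001 and 4 with FJ9, and 0 were higher in any of them, lower shares of 60%, 30% and 40%. Their medians were −0.94, −0.45 and −0.39. Col4a1 differed by −1.07, −0.09 and −0.30 and Lamc1 by −0.74, −0.31 and −0.01. Both passed 1.5-fold only under Ad.DKK-1, unlike Itgb5, but the order of the compounds was not the same. Ntn1, a laminin-related netrin, differed by −1.23, −1.07 and −2.11 (mean −1.47 ± 0.23, adjusted p = 0.0014 by limma). Smoc2, a secreted modular calcium-binding protein, was the other gene of this list that passed (−1.07 ± 0.23, adjusted p = 0.0118 by limma). Between the vehicle arrays 3 of these 10 genes were at least 1.5-fold lower on the vehicle of FJ9 and 0 higher, against 521 and 245 of all 10025 genes.

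The dystrophin and sarcoglycan list (5 genes past the filter) had 2 lower and 1 higher under Ad.DKK-1, 0 of either with ICG-001 and 1 lower with FJ9. Of 10 dystroglycan glycosylation genes, 2 were lower and 1 higher under Ad.DKK-1, 2 lower with ICG-001 and 1 lower with FJ9, and Gmppb, which makes the GDP-mannose needed for these glycans, differed by 2.01, −1.16 and −1.23. With so few genes these counts differ from the shares of all genes by less than 2 genes. Limma called 0 genes of either list, with 1 gene in each at an unadjusted p under 0.05. Of the 4 laminin receptors that are not integrins, Mcam differed by −0.03, 1.41 and −0.70, and Bcam, which binds the Lama5 chain, by −0.12, −0.09 and −0.36. The Ad.DKK-1 difference of Mcam is smaller than the shift between those array medians (−0.09), so its sign is not read.

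**Figure D4:**
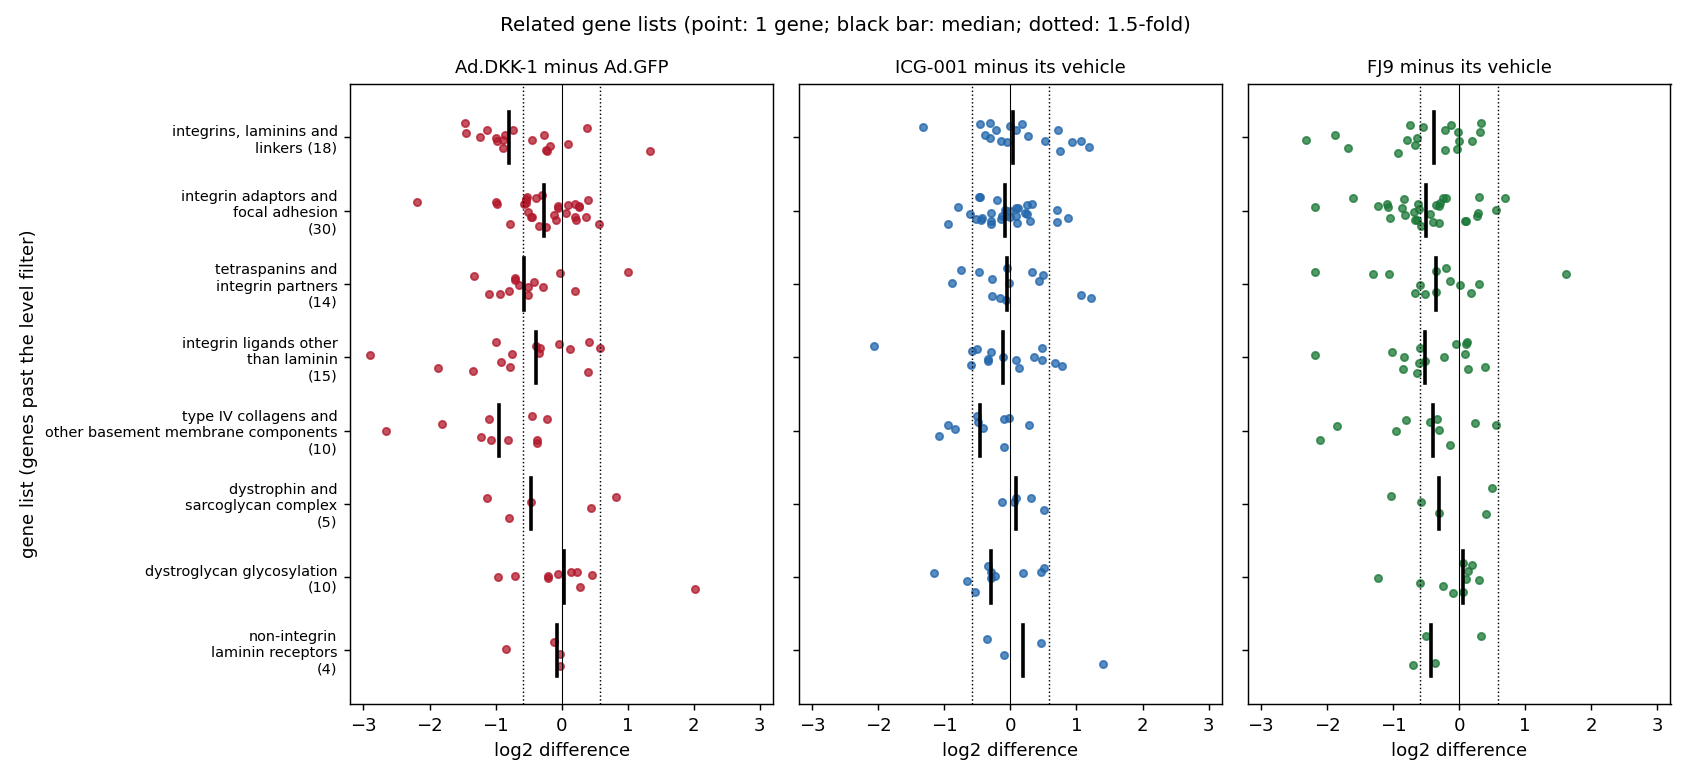
Log2 difference of each gene (point) and the median (black bar) for the 18 members and 7 related lists, 1 panel per treatment, with dotted lines at 1.5-fold. The median of the focal adhesion adaptors lies at −0.27 under Ad.DKK-1, −0.08 with ICG-001 and −0.51 with FJ9, and that of the 18 members at −0.80, 0.04 and −0.38.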

How the data were processed

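RNA of the 6 pools was hybridised to Affymetrix whole-transcript arrays, 1 per group. The submitters' processing notes name RMA and Affymetrix Expression Console, and the deposited log2 values are taken as their output (background-corrected, normalized between arrays, summarised per probe set). Versions and annotation release: not given in the sources used here. All 6 columns were used as deposited, and the number of arrays limits the precision.

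Of 26988 probe sets, 15092 had 1 gene symbol, 323 several and 11573 none, and 0 symbols changed on matching Entrez identifiers to RefSeq's GRCr8 table. The probe set with the highest mean stood for each of 14322 genes. The lowest 30% by mean level were left out of counts. A gene was counted when at least 1.5-fold from its control. Limma 3.58.1 in R 4.3.3 (lmFit, eBayes with trend, pair as a block, two-sided, Benjamini-Hochberg) had 2 residual degrees of freedom and was checked on simulated data. The labels carry no replicate numbers; the pairs are each treatment with the control named for it. Members past 1.5-fold or among the highest levels are given array by array, and up to 3 genes of each related list per comparison by largest difference. Fn1, Tln1, Tns1, Sdc2, Tgfb1, Fbn1, Col4a1 and markers were named besides, after their values were seen. The members and lists were chosen with earlier results of these data known. Alternatives were median centring, repeated quantile normalization, loess correction, no level filter, the mean of probe sets, the other vehicle, limma without trend or block, and leaving out each pair.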

Additional observations from a re-analysis of the deposited data

Results flagged for a closer look

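Itga4, Itga6 and Itga11 were at least 1.5-fold higher than control in 1 treatment and at least 1.5-fold lower in another, which was so for 3 of 18 members and 3.07% of all genes. With 1 array on each side these differences between treatments were not tested. The span between the highest and the lowest difference was 2.45 for Itga4 (0.76 with ICG-001, −1.69 with FJ9), 2.08 for Itga6 (1.34 under Ad.DKK-1, −0.74 with FJ9) and 1.93 for Itga11 (0.94 with ICG-001, −0.99 under Ad.DKK-1). The ICG-001 difference of Itga4 was 0.22 with the other vehicle, under 1.5-fold, so that its opposite signs past 1.5-fold rest on the vehicle used.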

How the results depend on the processing

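The adjusted p of Itgb5 ran from 1.48e-05 to 0.0058 over 9 alternatives by limma, all under 0.05, and no called difference of a member changed sign. Of 25 calls of members past 1.5-fold, all were kept with median centring, repeated quantile normalization and loess correction, and 3 of 14 were lost with the other vehicle (Itga4 with ICG-001, Agrn and Itga5 with FJ9). Gained were Itga7 with ICG-001 under all 3 rescalings (0.68 to 0.74) and, with the other vehicle, Itgb2 with ICG-001 (−0.72) and Lamc3 with FJ9 (−0.75). Without the level filter 2 members instead of 1 were higher under Ad.DKK-1, 3 instead of 1 were lower with ICG-001, and limma called 2 instead of 1, the added gene being Lama1 (−1.37 ± 0.31, adjusted p = 0.0098). The filter's removal adds 6 members. With the other vehicle 2 members were lower with ICG-001, and with median centring 1 was higher between the vehicle arrays. The cause was not tested. Leaving out 1 pair gave 2 to 3 called members by limma, against 5.69% to 7.2% of all genes. Without the pair block limma called 1 member and 422 instead of 860 genes in all, with median centring 538 genes, and without the ICG-001 pair 570. With 1 array per group, differences of the size seen between the vehicle arrays cannot be told from the spread between pools.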
